A study of Mus with 9 samples.

Results

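The genes described here are 39 genes of innate sensing in the mouse, taken by their symbol from a table of 54532 genes, and all 39 were present. They are 12 Toll-like receptors, the adaptor Myd88 with 4 Irak kinases and Traf6, the Nod receptors Nod1 and Nod2, 6 genes of the inflammasome and pyroptosis, 3 genes of necroptosis, the 5 subunits of NF-kB, 3 IkB proteins and 2 IkB kinases. They were measured by RNA sequencing in the kidneys of 9 male C57BL/6 mice, 1 library per mouse and 3 mice per group. All mice had undergone unilateral nephrectomy at 18 months of age. Mice of the 18 mo group were killed 1 week later. The 21 mo group received saline by daily intraperitoneal injection for 12 weeks, and the 21 mo/O304 group received O304 at 10 mg/kg/day over the same time. O304 is a small molecule that activates AMPK, the kinase by which cells sense a shortage of energy. Age, time since surgery and the injections differed together from the 18 mo mice to the older mice, so their parts in any difference from 18 mo cannot be told apart. The samples were whole kidney tissue, and fewer cells of a type cannot be told apart from less RNA per cell.

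Toll-like receptors recognise conserved molecules of microbes and of damaged cells, some at the cell surface and some inside endosomes. Most of them recruit Myd88, which assembles Irak kinases and Traf6 and leads to activation of the IkB kinases, degradation of IkB proteins and entry of NF-kB into the nucleus. Cytosolic receptors such as Nlrp3 and Aim2 instead assemble inflammasomes, in which caspase-1 matures interleukin-1 and cleaves gasdermin D. In the kidney these genes are used by resident and infiltrating macrophages and also by tubular cells.

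The libraries held between 15636378 and 18396725 counts on genes, and 1 count stood for 0.0458 to 0.0669 CPM, the unit of counts scaled to a common library size (after TMM normalization). The 39 genes took 9069 to 21418 counts per library, which made 559 to 599 CPM in the 18 mo libraries, 618, 841 and 981 CPM in replicates 1, 2 and 3 of the 21 mo group, and 579 to 651 CPM in the 21 mo/O304 libraries. The 21 mo mice differed strongly from each other. Their biological coefficient of variation was 44.2%, beside 18.1% for the mice of 18 mo and 20.6% for those given O304. Replicates 2 and 3 of the 21 mo group stood apart from the other libraries, with summed proximal tubule markers of 7589 and 1633 CPM, while the 18 mo libraries held 29667 to 36760 CPM and replicate 1 of the 21 mo group held 29169 CPM. All 8 proximal tubule markers were detected in every library. Most of their sum at 18 mo was Kap, with a mean of 21145 CPM, so the sum does not give the level of each marker. Counts of called genes are also given without single libraries of the 21 mo group.

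In the 18 mo kidneys these genes differed widely in level per length. On the FPKM scale, which divides by gene length, the highest was Nfkbia, the IkB alpha inhibitor of NF-kB and itself a target of NF-kB, at 23.1 ± 0.873 FPKM (mean ± SD, n = 3). Irak1, a kinase below Myd88, followed at 19.4 ± 1.36 FPKM, and Tlr12 and Rela were level at 14.9 ± 2.52 FPKM and 14.9 ± 0.801 FPKM. Irak2 stood at 8.29 ± 1.41 FPKM, Myd88 at 7.24 ± 0.5703 FPKM and Nfkb2 at 6.92 ± 1.42 FPKM, with overlapping spreads. Tlr12, an endosomal receptor for profilin of protozoan parasites, was by far the most abundant Toll-like receptor, and the next was Tlr3, a receptor for double-stranded RNA, at 2.17 ± 0.203 FPKM. Tlr2 was at 1.904 ± 0.594 FPKM and the spreads of Tlr2 and Tlr3 overlapped. The least abundant genes were Tlr5, the flagellin receptor, at 0.0482 ± 0.01997 FPKM, Tlr6 at 0.0968 ± 0.0585 FPKM and Tlr8 at 0.0977 ± 0.0446 FPKM. Tlr5 had too few counts to pass the filter on low counts and was not tested, which left 38 tested genes among 15902.

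**Figure D1:**
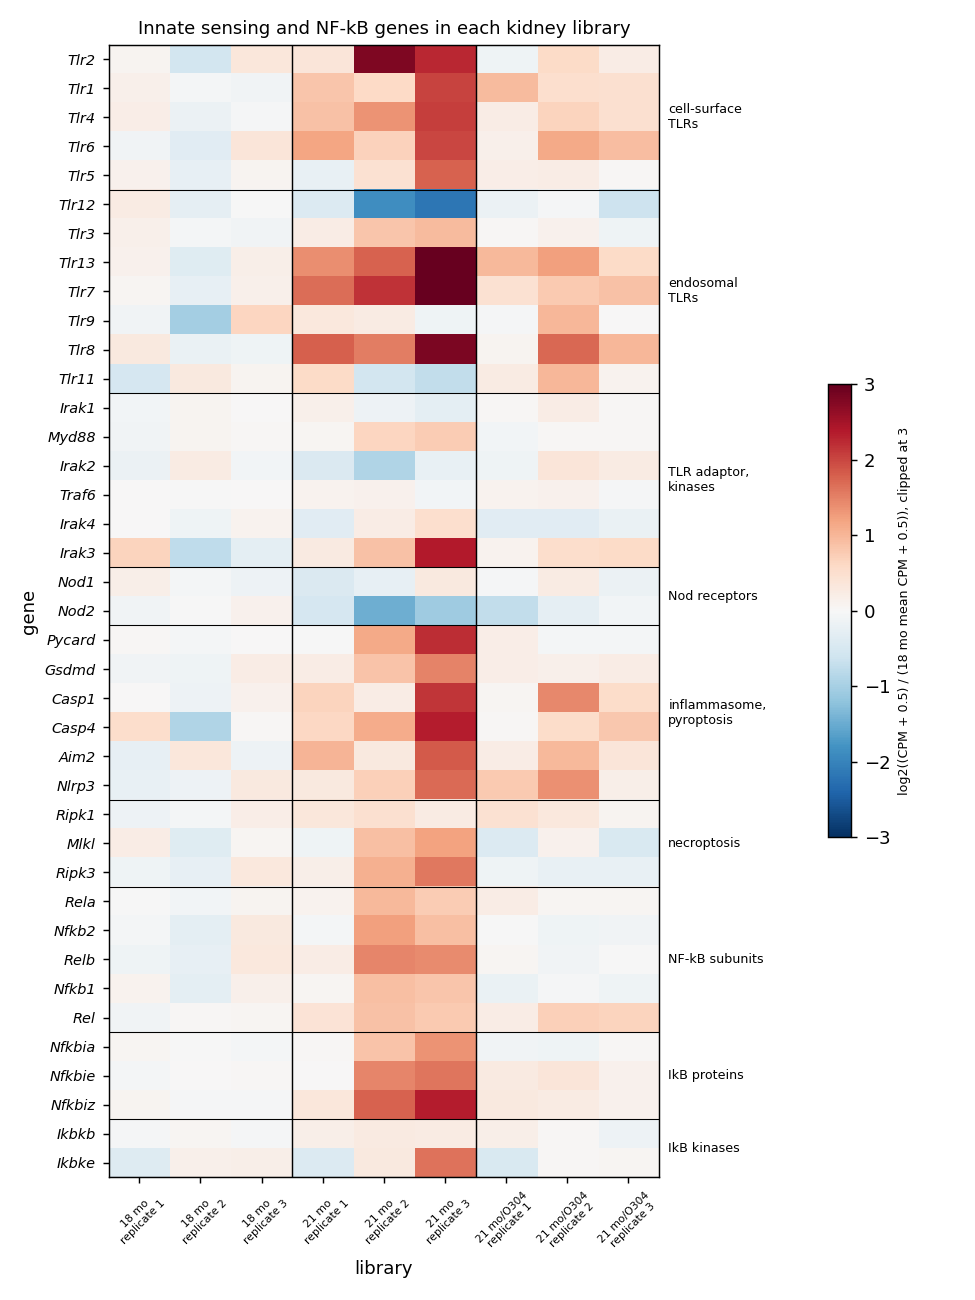
Each row is 1 of the 39 genes, grouped by role, and each column is 1 of the 9 libraries. Colour gives the log2 ratio of CPM to the 18 mo mean after adding 0.5 to both, clipped at 3, so that red cells lie above the 18 mo mean. Most rows were red in replicates 2 and 3 of the 21 mo group, while Tlr12, Nod2 and Irak2 were below the 18 mo mean there.

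The first comparison, 21 mo against 18 mo, asks how these genes differ between mice killed 1 week after surgery and older mice given saline for 12 weeks. Most of them had a higher mean at 21 mo, with the largest fitted log2 fold changes in the endosomal receptors Tlr8, Tlr7 and Tlr13, at 3.20, 3.06 and 2.83, followed by Tlr6 at 2.25 and Tlr2 at 2.21, but none passed the test. The edgeR quasi-likelihood test with Benjamini-Hochberg adjustment called 0 of the 38 tested genes at an adjusted p under 0.05, and it called 0.0189% of all tested genes. At an unadjusted p under 0.05, 26 of the 38 were higher and 3 lower, where 14% of all tested genes were higher and 12% lower. The 3 libraries of the 21 mo group all lay above the 3 of the 18 mo group for 16 of the 38 genes and all below for 3. This held for 13.5% and 15.3% of all tested genes. The median log2 fold change of the tested members was 0.88, and that of all tested genes was 0.034. Some genes passed the filter on low counts only through libraries in which they were high. Of the 3 libraries of the 18 mo group, Tlr8 was above the filter's level in 0 and Tlr6 in 1. Among the 33 members that were above the filter's level of 0.588 CPM in every library, 23 were higher and 3 lower at an unadjusted p under 0.05, 14 and 3 did not overlap, and the median was 0.85. With 3 mice against 3, an exact permutation test of a single gene cannot give a p under 0.1, and the p-values measure the spread between mice.

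Whether a gene was called depended on replicate 1 of the 21 mo group. Without that library edgeR called 23 members higher and 2 lower at 21 mo, and it then called 25.5% of all tested genes. The 23 genes ran from Myd88, with a log2 fold change of 0.71 (SE 0.12, edgeR adjusted p = 0.00742), to Tlr7, with 3.40 (SE 0.43, edgeR adjusted p = 0.004). The 2 lower genes were Tlr12, at −2.06 (SE 0.23, edgeR adjusted p = 0.00325), and Nod2, at −1.47 (SE 0.33, edgeR adjusted p = 0.0165). With replicate 3 of that group left out instead, Tlr7 and Tlr13 alone were called, both higher, among 0.849% of all tested genes. Without replicate 2, or without any library of the other groups, edgeR called 0 members. DESeq2 on all libraries called 18 members higher and 2 lower, among 12.3% of the genes to which it gave an adjusted p. Limma voom with sample quality weights called 24 higher and 3 lower, among 52.9% of all tested genes. The 16 genes called higher by DESeq2, by voom and by edgeR without replicate 1 were Tlr1, Tlr2, Tlr3, Tlr4, Tlr7, Tlr8, Tlr13, Pycard, Casp4, Gsdmd, Rela, Relb, Rel, Nfkbia, Nfkbie and Nfkbiz, and Tlr12 and Nod2 were called lower by all 3. The share of all tested genes called by all 3 is not given, so these counts have no background to be set against. Tlr8, under the filter's level in every 18 mo library, is among the 23, the 18, the 24 and the 16. Tlr6, above that level in 1 of the 3 libraries of the 18 mo group, is among the 23 and the 18. The called counts were not repeated over the 33 members above the level in every library.

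**Figure D2:**
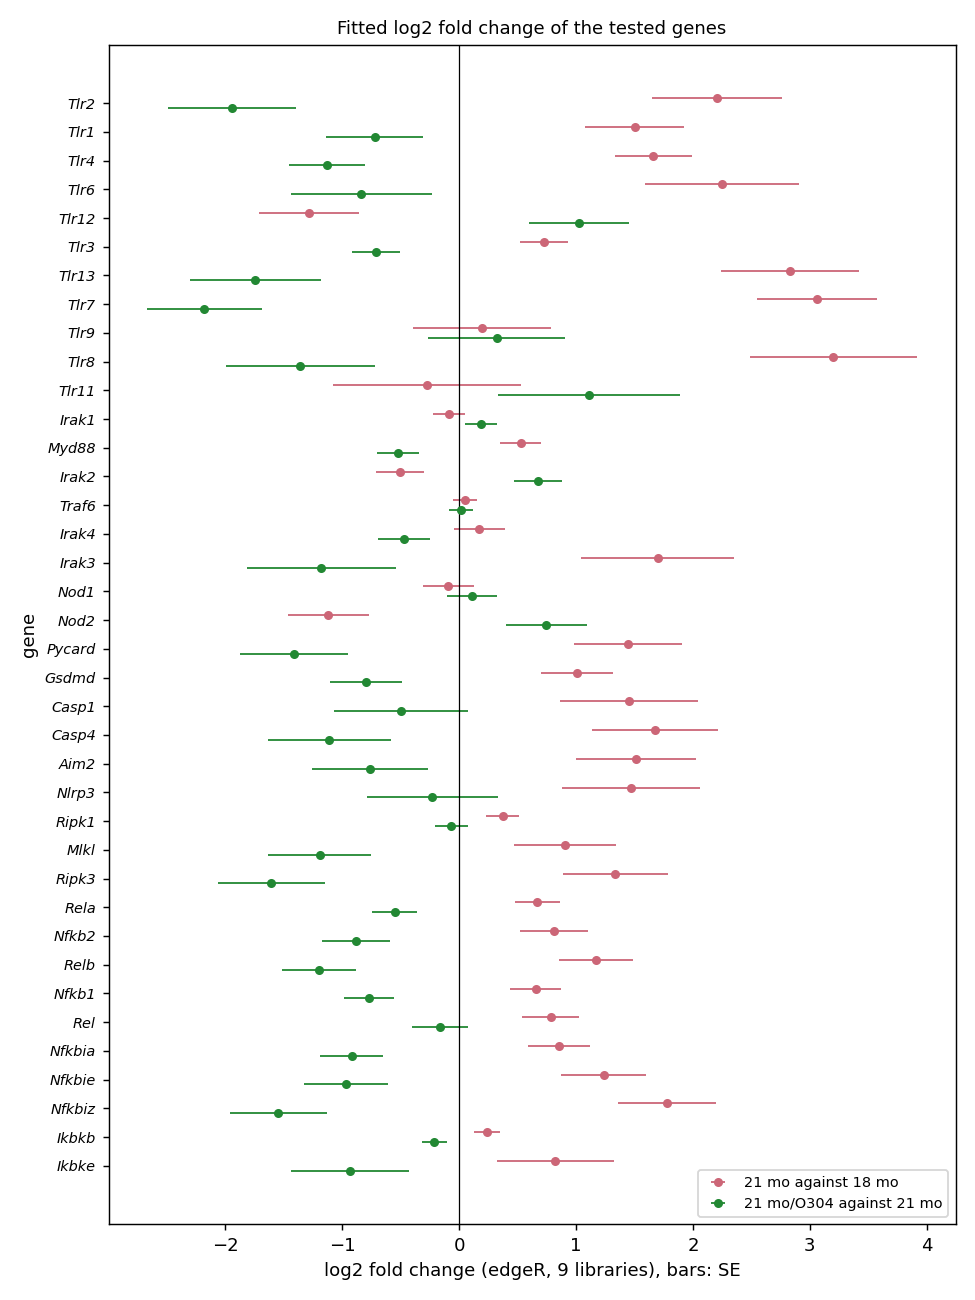
Points give the log2 fold change from edgeR for the 38 tested genes in 21 mo against 18 mo (red) and in 21 mo/O304 against 21 mo (green), and bars give the standard error. The axis is in log2 units, and the comparisons share the 3 libraries of the 21 mo group. Tlr8, which was under the filter's level in every 18 mo library, reached 3.20 at 21 mo and Tlr7 reached 3.06. Tlr12 was at −1.29, and no gene passed the adjusted test in either comparison.

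Among the receptors of the cell surface, Tlr2, Tlr4, Tlr1 and Tlr6 were each higher in all 3 mice of the 21 mo group than in any 18 mo mouse. Tlr2 (ENSMUSG00000027995, chromosome 3 from 83836272 to 83841767 on the minus strand) recognises bacterial lipoproteins together with Tlr1 or Tlr6. Tlr2 read 6.32, 3.88 and 7.58 CPM at 18 mo, 7.76, 44.1 and 30.3 CPM at 21 mo and 5.35, 9.12 and 6.94 CPM with O304. Replicate 1 lay just above the 18 mo range and replicate 2 was the highest, and the 21 mo/O304 mice overlapped both other groups. Tlr2 had a log2 fold change of 2.21 (SE 0.55, edgeR adjusted p = 0.0775) in 21 mo against 18 mo and of −1.94 (SE 0.55, edgeR adjusted p = 0.175) in 21 mo/O304 against 21 mo. Tlr4 (ENSMUSG00000039005, chromosome 4 from 66827584 to 66930284 on the plus strand) is the receptor for lipopolysaccharide. For Tlr4, the CPM values were 3.72, 2.77 and 3.11 at 18 mo, 6.35, 8.92 and 15.1 at 21 mo and 3.84, 5.42 and 4.65 in 21 mo/O304. All 3 mice of the 21 mo group lay above all others, and the 21 mo/O304 mice lay above the 18 mo mice. Fitted to Tlr4, the log2 fold change was 1.66 (SE 0.33, edgeR adjusted p = 0.0626) at 21 mo against 18 mo and −1.13 (SE 0.33, edgeR adjusted p = 0.175) with O304 against 21 mo.

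Tlr1 (ENSMUSG00000044827, chromosome 5 from 64924679 to 64933563 on the minus strand) and Tlr6 (ENSMUSG00000051498, chromosome 5 from 64952031 to 64960097 on the minus strand) are neighbouring genes with similar sequences, and the treatment of reads that match both is not stated in the sources used here, so their separate values are uncertain. Levels of Tlr1 were 2.35, 1.97 and 1.87 CPM in the 18 mo mice, 4.08, 3.41 and 10.03 CPM in the 21 mo mice and 4.42, 3.16 and 3.06 CPM in the 21 mo/O304 mice. Tlr6 was at 0.3097, 0.185 and 0.622 CPM in the 18 mo libraries, 1.47, 0.909 and 3.02 CPM in the 21 mo libraries and 0.465, 1.43 and 1.15 CPM in the 21 mo/O304 libraries. Replicate 3 of the 21 mo group was the highest library for both, and for both the 21 mo/O304 mice overlapped the 21 mo mice. Tlr1 was fitted at a log2 fold change of 1.503 (SE 0.42, edgeR adjusted p = 0.0864) in 21 mo against 18 mo and −0.72 (SE 0.41, edgeR adjusted p = 0.327) in 21 mo/O304 against 21 mo. Tlr6 had a log2 fold change of 2.25 (SE 0.66, edgeR adjusted p = 0.0908) in 21 mo against 18 mo and of −0.84 (SE 0.61, edgeR adjusted p = 0.425) in 21 mo/O304 against 21 mo. Tlr5, the receptor for flagellin, was lower still, with 0.3097, 0.123 and 0.283 CPM at 18 mo, 0.134, 0.511 and 2.02 CPM at 21 mo and 0.349, 0.358 and 0.255 CPM with O304, and only replicates 2 and 3 of the 21 mo group stood above the other groups.

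Of the endosomal receptors, those for single-stranded RNA had the largest fitted log2 fold changes of the 38 tested genes at 21 mo. Tlr7 (ENSMUSG00000044583, chromosome X from 167304929 to 167330558 on the minus strand) and Tlr8 (ENSMUSG00000040522, chromosome X from 167242696 to 167264329 on the minus strand) are neighbours that bind single-stranded RNA and its breakdown products, and Tlr13 (ENSMUSG00000033777, chromosome X from 106143204 to 106160493 on the plus strand) binds a sequence of bacterial ribosomal RNA. Tlr7 read 1.73, 1.29 and 1.87 CPM at 18 mo, 6.35, 9.04 and 25.5 CPM at 21 mo and 2.44, 3.16 and 3.44 CPM with O304. The 3 groups were fully separated, with the O304 mice between the others. Fitted to Tlr7, the log2 fold change was 3.06 (SE 0.51, edgeR adjusted p = 0.0626) at 21 mo against 18 mo and −2.18 (SE 0.49, edgeR adjusted p = 0.175) with O304 against 21 mo. For Tlr8, the CPM values were 0.557, 0.246 and 0.283 at 18 mo, 2.48, 1.99 and 5.63 at 21 mo and 0.407, 2.32 and 1.21 in 21 mo/O304. Every 21 mo mouse lay above the 18 mo mice, and replicate 2 of the O304 group lay within the 21 mo range. Tlr8 had 9, 4 and 5 counts at 18 mo, all under the filter's level of 0.588 CPM, so its fold changes rest on few counts. Tlr8 was fitted at a log2 fold change of 3.20 (SE 0.72, edgeR adjusted p = 0.0679) in 21 mo against 18 mo and −1.36 (SE 0.64, edgeR adjusted p = 0.259) in 21 mo/O304 against 21 mo. Levels of Tlr13 were 2.79, 1.85 and 2.88 CPM in the 18 mo mice, 7.36, 9.78 and 36.4 CPM in the 21 mo mice and 5.41, 6.56 and 4.01 CPM in the 21 mo/O304 mice. Here too the groups did not overlap and the O304 mice lay between. Tlr13 had a log2 fold change of 2.83 (SE 0.59, edgeR adjusted p = 0.0626) in 21 mo against 18 mo and of −1.75 (SE 0.56, edgeR adjusted p = 0.181) in 21 mo/O304 against 21 mo.

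Tlr3 (ENSMUSG00000031639, chromosome 8 from 45395665 to 45411080 on the minus strand) senses double-stranded RNA and signals without Myd88. Tlr3 was at 13.01, 11.2 and 10.7 CPM in the 18 mo libraries, 13.7, 21.03 and 23.04 CPM in the 21 mo libraries and 11.9, 12.8 and 10.6 CPM in the 21 mo/O304 libraries. Replicate 1 of the 21 mo group was only just above the highest 18 mo mouse, and the O304 mice lay inside or at the edge of the 18 mo range. Fitted to Tlr3, the log2 fold change was 0.73 (SE 0.21, edgeR adjusted p = 0.0864) at 21 mo against 18 mo and −0.71 (SE 0.21, edgeR adjusted p = 0.175) with O304 against 21 mo. Tlr12 (ENSMUSG00000062545, chromosome 4 from 128615443 to 128618619 on the minus strand) differed in the other direction. Tlr12 read 58.1, 40.4 and 48.5 CPM at 18 mo, 36.99, 13.01 and 10.5 CPM at 21 mo and 43.1, 47.7 and 31.5 CPM with O304. The 21 mo mice were all below the 18 mo mice, and replicates 2 and 3 were below every other library. Tlr12 was fitted at a log2 fold change of −1.29 (SE 0.43, edgeR adjusted p = 0.112) in 21 mo against 18 mo and 1.02 (SE 0.43, edgeR adjusted p = 0.227) in 21 mo/O304 against 21 mo. Relative to the 18 mo mean, Tlr12 stood at 0.755, 0.266 and 0.214 times in replicates 1, 2 and 3, while the summed proximal tubule markers stood at 0.902, 0.235 and 0.0505 times. Most of that sum at 18 mo was Kap. Of the 8 markers, 7 had a lower fitted mean at 21 mo. By edgeR 3 were lower at an unadjusted p under 0.05, where 12% of all tested genes were. The part of the proximal tubule in the Tlr12 values was not tested. Tlr9, the receptor for unmethylated CpG DNA, and Tlr11, the partner of Tlr12, were at 0.137 to 3.52 CPM over all libraries and overlapped between all groups.

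**Figure D3:**
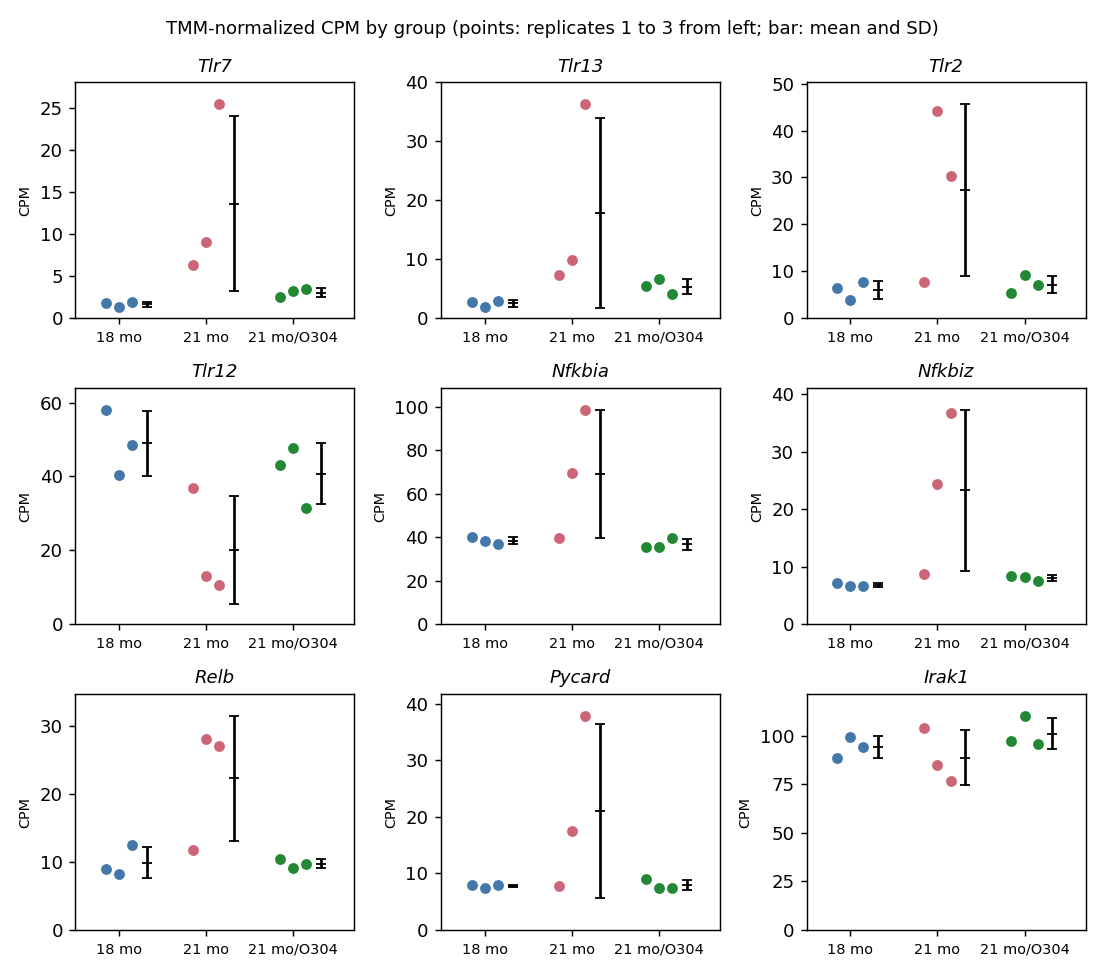
Points are the CPM of 9 genes in each mouse, with replicates 1 to 3 from left to right, and the bar beside each group gives its mean and SD (n = 3). Every axis is linear and starts at 0. Tlr7 and Tlr13 were high in all 3 mice of the 21 mo group, Nfkbia, Relb and Pycard were high in replicates 2 and 3 only, and Irak1 lay between 77.00 and 110.5 CPM in all 9 mice.

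Of the adaptor and the kinases that carry the signal from the receptors, 5 of 6 had a fitted log2 fold change between −0.50 and 0.53 at 21 mo, and Irak3 stood at 1.70. Irak1 (ENSMUSG00000031392, chromosome X from 74013914 to 74023918 on the minus strand) is phosphorylated by Irak4 and passes the signal to Traf6. For Irak1, the CPM values were 88.8, 99.7 and 94.5 at 18 mo, 104, 85.2 and 77.00 at 21 mo and 97.3, 110.5 and 95.9 in 21 mo/O304. The 21 mo mice ran from above the 18 mo mice in replicate 1 to below them in replicates 2 and 3. Irak1 had a log2 fold change of −0.087 (SE 0.14, edgeR adjusted p = 0.71) in 21 mo against 18 mo and of 0.19 (SE 0.14, edgeR adjusted p = 0.427) in 21 mo/O304 against 21 mo. Myd88, the common adaptor, was at 17.8 to 20.3 CPM in the 18 mo mice, at 20.1, 30.2 and 32.7 CPM in the 21 mo mice and at 18.2 to 19.8 CPM with O304. Traf6, a ubiquitin ligase, lay between 31.97 and 36.7 CPM in all 9 libraries, with a log2 fold change of 0.052 at 21 mo. Irak4, the first kinase of the chain, ranged from 9.10 to 16.7 CPM at 21 mo, overlapped the 18 mo mice and was at 9.18 to 10.1 CPM with O304. Irak3, an inhibitory member of the family found mainly in myeloid cells, was at 2.27, 3.75 and 11.4 CPM at 21 mo, at 0.863 to 3.16 CPM at 18 mo and at 1.98 to 2.93 CPM with O304. Irak2, which sustains the late response, was singled out after its values were seen. It was at 33.3, 44.4 and 35.3 CPM at 18 mo, at 27.6, 19.8 and 32.2 CPM at 21 mo and at 34.2, 48.3 and 44.5 CPM with O304. The 21 mo mice were below both other groups with no overlap, and the log2 fold changes were −0.50 (SE 0.21, edgeR adjusted p = 0.168) against 18 mo and 0.67 (SE 0.21, edgeR adjusted p = 0.177) for O304 against 21 mo.

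The Nod receptors, which sense fragments of bacterial peptidoglycan, were not among the genes that were higher at 21 mo. Nod1 (ENSMUSG00000038058, chromosome 6 from 54923949 to 54972612 on the minus strand) is widely expressed in epithelia. Levels of Nod1 were 19.4, 16.5 and 15.3 CPM in the 18 mo mice, 12.5, 14.3 and 21.1 CPM in the 21 mo mice and 16.5, 20.3 and 14.96 CPM in the 21 mo/O304 mice. The 3 groups overlapped, and the single highest value was that of replicate 3 of the 21 mo group. Fitted to Nod1, the log2 fold change was −0.094 (SE 0.22, edgeR adjusted p = 0.808) at 21 mo against 18 mo and 0.11 (SE 0.22, edgeR adjusted p = 0.779) with O304 against 21 mo. Nod2 was also named after its values were seen. Nod2 was at 4.397, 4.74 and 5.26 CPM in the 18 mo libraries, 3.21, 1.42 and 2.02 CPM in the 21 mo libraries and 2.67, 3.93 and 4.52 CPM in the 21 mo/O304 libraries. All 21 mo mice lay below all 18 mo mice, and the O304 mice overlapped both. The log2 fold change of Nod2 at 21 mo was −1.12 (SE 0.35, edgeR adjusted p = 0.0992).

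All 6 genes of the inflammasome and pyroptosis had an unadjusted p under 0.05 and a higher mean at 21 mo, and 3 of them, Casp1, Casp4 and Gsdmd, did not overlap with 18 mo. Of all tested genes 14% were higher at such a p, and for 13.5% the 21 mo mice all lay above the 18 mo mice. Pycard (ENSMUSG00000030793, chromosome 7 from 127989708 to 127993867 on the minus strand) encodes ASC, the adaptor that joins sensors to caspase-1. Pycard read 7.93, 7.46 and 7.86 CPM at 18 mo, 7.69, 17.6 and 37.9 CPM at 21 mo and 9.01, 7.39 and 7.39 CPM with O304. Replicate 1 of the 21 mo group was within the 18 mo range, and replicates 2 and 3 were above every other mouse. Pycard was fitted at a log2 fold change of 1.44 (SE 0.46, edgeR adjusted p = 0.105) in 21 mo against 18 mo and −1.41 (SE 0.46, edgeR adjusted p = 0.182) in 21 mo/O304 against 21 mo. Nlrp3 (ENSMUSG00000032691, chromosome 11 from 59541568 to 59566956 on the plus strand) is the sensor of membrane and ion disturbance. For Nlrp3, the CPM values were 0.557, 0.616 and 1.02 at 18 mo, 1.003, 1.53 and 3.53 at 21 mo and 1.63, 2.68 and 0.891 in 21 mo/O304. It was at or under 1.02 CPM in all 18 mo mice, and the O304 mice overlapped both other groups. Nlrp3 had a log2 fold change of 1.47 (SE 0.59, edgeR adjusted p = 0.16) in 21 mo against 18 mo and of −0.23 (SE 0.56, edgeR adjusted p = 0.82) in 21 mo/O304 against 21 mo. Casp1, the inflammatory caspase, was at 1.98, 1.73 and 2.21 CPM at 18 mo, 3.41, 2.39 and 10.4 CPM at 21 mo and 2.09, 6.26 and 3.12 CPM with O304, so that 1 O304 mouse was above 2 of the 21 mo mice. Casp4, known as caspase-11 in the mouse, binds intracellular lipopolysaccharide and reached 6.22, 8.98 and 21.8 CPM at 21 mo, where the 18 mo mice were at 1.85 to 5.76 CPM and the O304 mice at 4.01 to 7.19 CPM. Gsdmd, which forms the pyroptotic pore, was at 6.49, 10.3 and 16.1 CPM at 21 mo, at 4.93 to 6.45 CPM at 18 mo and at 6.08 to 6.49 CPM with O304. Aim2, a sensor of cytosolic DNA, was at 2.81, 1.48 and 5.31 CPM at 21 mo, and both other groups, at 0.867 to 2.68 CPM, overlapped it.

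Of the necroptosis genes, Ripk3 and Mlkl had fitted log2 fold changes of 1.34 and 0.91 at 21 mo and the upstream kinase Ripk1 one of 0.37. Ripk1 (ENSMUSG00000021408, chromosome 13 from 34002363 to 34037147 on the plus strand) directs signals from death receptors to survival or to death. Levels of Ripk1 were 28.7, 30.4 and 36.5 CPM in the 18 mo mice, 40.7, 44.95 and 38.02 CPM in the 21 mo mice and 44.1, 39.99 and 33.9 CPM in the 21 mo/O304 mice. All 21 mo mice lay above the 18 mo mice, and the O304 mice overlapped both groups. Fitted to Ripk1, the log2 fold change was 0.37 (SE 0.14, edgeR adjusted p = 0.145) at 21 mo against 18 mo and −0.068 (SE 0.14, edgeR adjusted p = 0.79) with O304 against 21 mo. Ripk3 (ENSMUSG00000022221, chromosome 14 from 55784995 to 55788865 on the minus strand) phosphorylates Mlkl, which then breaks the plasma membrane. Ripk3 was at 1.05, 0.924 and 1.58 CPM in the 18 mo libraries, 1.405, 3.01 and 4.58 CPM in the 21 mo libraries and 1.05, 0.954 and 0.955 CPM in the 21 mo/O304 libraries. The 21 mo/O304 mice were all below the 21 mo mice and inside the 18 mo range, and replicates 2 and 3 of the 21 mo group exceeded that range. Ripk3 was fitted at a log2 fold change of 1.34 (SE 0.45, edgeR adjusted p = 0.114) in 21 mo against 18 mo and −1.61 (SE 0.46, edgeR adjusted p = 0.175) in 21 mo/O304 against 21 mo. Mlkl was at 1.48 to 2.48 CPM at 18 mo, at 1.81, 4.26 and 5.36 CPM at 21 mo and at 1.34 to 2.26 CPM with O304.

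All 5 NF-kB subunits had higher means at 21 mo, mainly through replicates 2 and 3. Rela (ENSMUSG00000024927, chromosome 19 from 5637483 to 5648130 on the plus strand) encodes p65, the main activating subunit. Rela read 41.7, 39.3 and 44.2 CPM at 18 mo, 45.3, 81.9 and 71.6 CPM at 21 mo and 48.4, 43.5 and 43.7 CPM with O304. Replicate 1 was just above the 18 mo mice and replicates 2 and 3 were well above. Rela had a log2 fold change of 0.67 (SE 0.19, edgeR adjusted p = 0.0904) in 21 mo against 18 mo and of −0.55 (SE 0.19, edgeR adjusted p = 0.19) in 21 mo/O304 against 21 mo. Nfkb1 (ENSMUSG00000028163, chromosome 3 from 135584655 to 135691547 on the minus strand) encodes p105, which is processed to p50. For Nfkb1, the CPM values were 39.02, 29.6 and 40.1 at 18 mo, 38.00, 68.3 and 64.6 at 21 mo and 31.6, 35.6 and 32.98 in 21 mo/O304. Replicate 1 was within the 18 mo range, and all O304 mice were below all 21 mo mice. Fitted to Nfkb1, the log2 fold change was 0.65 (SE 0.22, edgeR adjusted p = 0.112) at 21 mo against 18 mo and −0.77 (SE 0.22, edgeR adjusted p = 0.175) with O304 against 21 mo.

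Relb (ENSMUSG00000002983, chromosome 7 from 19606217 to 19629438 on the minus strand), a subunit of the noncanonical pathway, was also highest in replicates 2 and 3 of the 21 mo group. Levels of Relb were 8.98, 8.195 and 12.5 CPM in the 18 mo mice, 11.7, 28.1 and 27.1 CPM in the 21 mo mice and 10.4, 9.12 and 9.74 CPM in the 21 mo/O304 mice. Replicate 1 lay within the 18 mo range. Relb was fitted at a log2 fold change of 1.17 (SE 0.32, edgeR adjusted p = 0.0838) in 21 mo against 18 mo and −1.20 (SE 0.32, edgeR adjusted p = 0.175) in 21 mo/O304 against 21 mo. Rel (ENSMUSG00000020275, chromosome 11 from 23736847 to 23770970 on the minus strand) encodes c-Rel, which is most abundant in lymphoid and myeloid cells. Rel was at 3.16, 3.51 and 3.56 CPM in the 18 mo libraries, 4.68, 6.65 and 6.28 CPM in the 21 mo libraries and 4.07, 5.900 and 5.73 CPM in the 21 mo/O304 libraries. It was above the 18 mo mice in every mouse of both older groups, with a log2 fold change of 0.62 (SE 0.24, edgeR adjusted p = 0.474) in 21 mo/O304 against 18 mo. Rel had a log2 fold change of 0.78 (SE 0.24, edgeR adjusted p = 0.0999) in 21 mo against 18 mo and of −0.17 (SE 0.24, edgeR adjusted p = 0.69) in 21 mo/O304 against 21 mo. Nfkb2, the precursor p100, was at 19.2 to 28.8 CPM at 18 mo, at 22.7, 56.2 and 44.5 CPM at 21 mo and at 21.6 to 23.4 CPM with O304.

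The IkB proteins, which are both regulators and targets of NF-kB, showed the same split within the 21 mo group. Nfkbia (ENSMUSG00000021025, chromosome 12 from 55489410 to 55492647 on the minus strand) had the highest FPKM of all members. Nfkbia read 40.01, 38.3 and 36.7 CPM at 18 mo, 39.5, 69.7 and 98.5 CPM at 21 mo and 35.4, 35.2 and 39.4 CPM with O304. Replicate 1 was within the 18 mo range, and replicates 2 and 3 were above all others. Fitted to Nfkbia, the log2 fold change was 0.85 (SE 0.27, edgeR adjusted p = 0.102) at 21 mo against 18 mo and −0.92 (SE 0.27, edgeR adjusted p = 0.175) with O304 against 21 mo. Nfkbiz (ENSMUSG00000035356, chromosome 16 from 55811375 to 55838899 on the minus strand) encodes a nuclear IkB that is needed for a subset of inflammatory genes. For Nfkbiz, the CPM values were 7.18, 6.59 and 6.62 at 18 mo, 8.696, 24.3 and 36.8 at 21 mo and 8.37, 8.11 and 7.45 in 21 mo/O304. Every 21 mo mouse was above every other mouse, by little in replicate 1. Nfkbiz was fitted at a log2 fold change of 1.78 (SE 0.42, edgeR adjusted p = 0.0716) in 21 mo against 18 mo and −1.55 (SE 0.42, edgeR adjusted p = 0.175) in 21 mo/O304 against 21 mo. Nfkbie, or IkB epsilon, was at 7.06 to 7.64 CPM at 18 mo, at 7.43, 21.4 and 23.5 CPM at 21 mo and at 8.15 to 9.60 CPM with O304. Of the IkB kinases, Ikbkb (ENSMUSG00000031537, chromosome 8 from 22659212 to 22706589 on the minus strand) is the catalytic subunit of the canonical pathway. Levels of Ikbkb were 52.5, 55.4 and 52.6 CPM in the 18 mo mice, 60.8, 65.1 and 63.3 CPM in the 21 mo mice and 60.1, 55.2 and 47.9 CPM in the 21 mo/O304 mice. It was higher at 21 mo than in both other groups with no overlap, but by little. Ikbkb had a log2 fold change of 0.24 (SE 0.11, edgeR adjusted p = 0.202) in 21 mo against 18 mo and of −0.21 (SE 0.11, edgeR adjusted p = 0.283) in 21 mo/O304 against 21 mo. Ikbke, a related kinase induced in myeloid cells, was at 3.08, 5.29 and 14.2 CPM at 21 mo, at 3.16 to 4.86 CPM at 18 mo and at 2.97 to 4.46 CPM with O304.

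The second comparison, 21 mo/O304 against 21 mo, asks whether the activator changed these levels at the same age. Most means were lower with O304, with the largest differences in Tlr7, Tlr2, Tlr13, Ripk3 and Nfkbiz, and no gene passed the test. The edgeR test called 0 of the 38 tested genes, and 0% of all tested genes. At an unadjusted p under 0.05, 17 were lower and 2, Irak2 and Tlr12, were higher, where 12.4% of all tested genes were lower and 8.27% higher. For 11 of the 38 genes the O304 mice all lay below the 21 mo mice and for 1, Irak2, above them. This held for 10.5% and 10.8% of all tested genes. The median log2 fold change was −0.77 over the tested members, −0.32 without replicate 3 of the 21 mo group, and −0.019 over all tested genes. Among the 33 members above the filter's level in every library these counts were the same and the median was −0.77.

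Here too the calls depended on replicate 1 of the 21 mo group, the library with the lowest value of the group for 26 of the 39 genes. Without it, edgeR called 18 members lower and 3 higher, and it called 23.2% of all tested genes. The 3 higher genes were Tlr12, Nod2 and Tlr11, the last above the filter's level in 1 of the 3 libraries of the 21 mo group. The called counts of this comparison were not repeated over the 33 members above that level in every library. Without any other single library edgeR called 0 members. DESeq2 called 11 members lower and none higher, among 5.75% of its genes, and voom called 19 lower and 5 higher, among 41.1%. The 11 genes that DESeq2 called, Tlr2, Tlr3, Tlr4, Tlr7, Tlr13, Pycard, Ripk3, Nfkb1, Relb, Nfkbia and Nfkbiz, were also called lower by voom and by edgeR without replicate 1. For these 11 too, the share of all tested genes called by every 1 of these fits is not given. This comparison uses the same 21 mo libraries as the first one, so a high 21 mo value enters both with opposite sign.

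The third comparison, 21 mo/O304 against 18 mo, does not use the 21 mo libraries for its means. No member passed the edgeR test, which called 0% of all tested genes. At an unadjusted p under 0.05 there were 2 higher members, Tlr8 with a log2 fold change of 1.84 (SE 0.72, edgeR adjusted p = 0.471) and Rel, and 0 lower, where 4.33% of all tested genes were higher and 5.33% lower. Tlr8 was above the filter's level in 0 of the 3 libraries of the 18 mo group, and among the 33 members above it in every library 1 was higher and 0 lower. The groups did not overlap for 7 higher genes, Tlr1, Tlr4, Tlr7, Tlr13, Rel, Nfkbie and Nfkbiz, and for 1 lower gene, Irak4, where this held for 13.2% and 13.3% of all tested genes. The median log2 fold change was 0.19 over the tested members, 0.10 over the 33 members above the filter's level in every library, and 0.0028 over all tested genes. DESeq2, which gave an adjusted p to 36 members, and voom called 0 members, as did edgeR without any 1 library. In single mice, 13, 21 and 14 of the 38 tested members were above the highest 18 mo value in O304 replicates 1, 2 and 3. Of all tested genes 30%, 32.3% and 31.7% were above it. Of the 38, 5, 4 and 8 were below the lowest, where 30.4%, 32.5% and 31.3% of all tested genes were.

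The 21 mo mice differed from each other in which of these genes were high. In replicate 1, 20 of the 38 tested members were above the highest 18 mo mouse, in replicate 2 there were 30 and in replicate 3 there were 31. Of all tested genes 31.1%, 37.3% and 41.3% were above it. In each of the 3 mice, 6 of the 38 were below the lowest 18 mo mouse, where 33.4%, 36.1% and 40.5% of all tested genes were. Over all 39 genes, replicate 3 held the highest 21 mo value of 25, replicate 2 of 9 and replicate 1 of 5. Against the 18 mo mean, replicate 1 was already 6.83 times as high for Tlr8, 3.89 times for Tlr7 and 2.94 times for Tlr13. The 18 mo mean of Tlr8 rests on 9, 4 and 5 counts. The 5 NF-kB subunits stood at 0.966 to 1.37 times in replicate 1 and the 3 IkB proteins at 1.00 to 1.28 times. Between replicates 2 and 3 the roles also split. All 5 NF-kB subunits were lower in replicate 3 than in replicate 2, at 0.792 to 0.962 times, and so was Tlr2, at 0.687 times. All 6 inflammasome genes were higher in replicate 3, at 1.57 times for Gsdmd to 4.34 times for Casp1, and Tlr7, Tlr8 and Tlr13 were at 2.82, 2.83 and 3.72 times. The IkB proteins were at 1.10 to 1.51 times. These ratios compare single mice and carry no test.

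**Figure D4:**
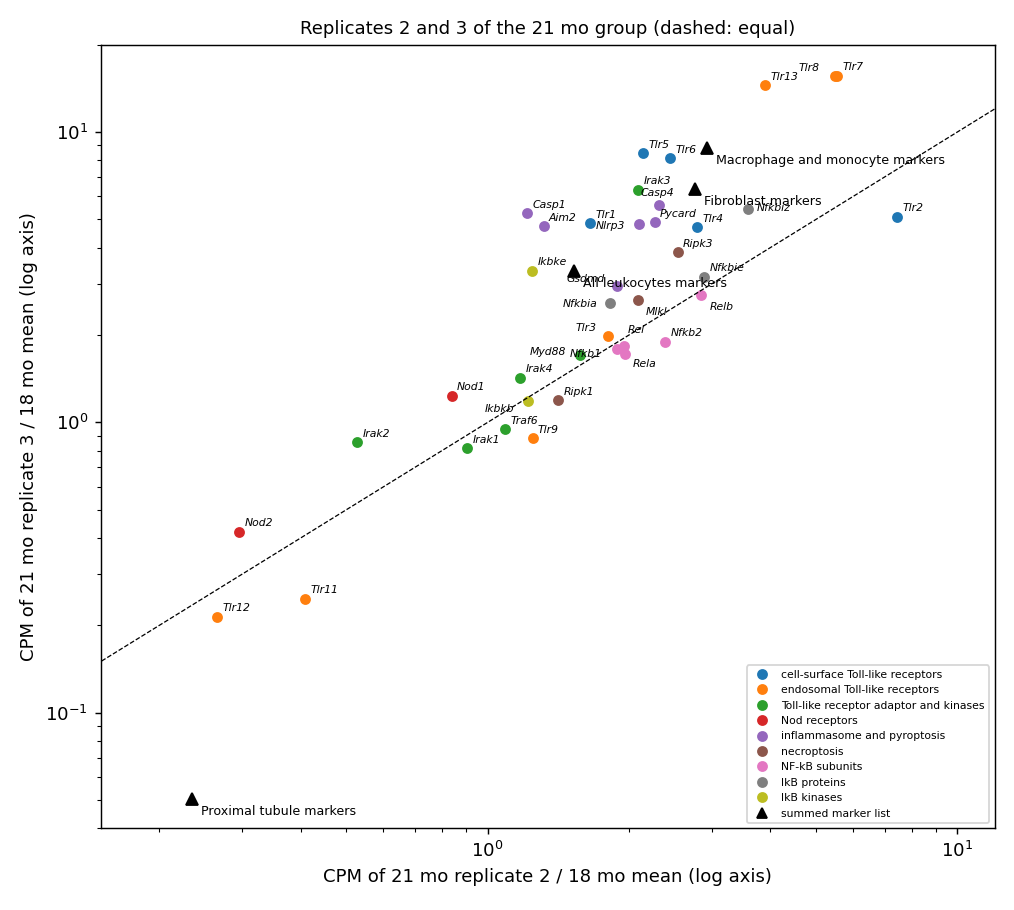
Each point is 1 gene, at its CPM in replicate 2 (horizontal) and replicate 3 (vertical) of the 21 mo group divided by the 18 mo mean, on log axes, coloured by role, and triangles are summed marker lists. The dashed line marks equal values. The NF-kB subunits lay just under the line, and Tlr7, Tlr8 and Tlr13 lay well above it. Markers of macrophages and monocytes, of fibroblasts and of all leukocytes also lay above the line, and those of the proximal tubule lay below it. Tlr12 and Nod2 lay below 1 on both axes.

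Some markers of other cell types moved with these genes. The 12 macrophage and monocyte markers summed to 327 to 540.2 CPM at 18 mo, to 821, 1268 and 3817 CPM in replicates 1, 2 and 3 of the 21 mo group and to 634 to 668 CPM with O304. Of the 12, 11 were higher at 21 mo at an unadjusted p under 0.05, where 14% of all tested genes were, and none was at 0 in any library. Their sum was weighted by Lyz2, at 1068 ± 995 CPM at 21 mo (mean ± SD, n = 3). Adgre1 was at 45.2 ± 11.2 CPM and Ccr2 at 29.5 ± 7.07 CPM, so the steps of the sum do not hold for each marker. The 4 markers of all leukocytes summed to 82.8 to 110.9 CPM, to 167, 145 and 315 CPM and to 116 to 169.6 CPM in the same order of groups. Markers of tubule injury summed to 42.6 to 50.1 CPM at 18 mo and to 39.8 to 60.2 CPM with O304, and in the 21 mo group they reached 67.6, 1063 and 1476 CPM. Within the injury sum, Lcn2 was at 323 and 1258 CPM in replicates 2 and 3, and Vcam1 at 245 and 143 CPM. The steps of this sum therefore do not hold for each injury marker. In these sums replicate 3 was 3.01 times as high as replicate 2 for macrophage markers and 1.39 times for injury markers. The same ratio was 5.88 for B and plasma, 2.94 for podocyte, 2.81 for neutrophil, 2.31 for fibroblast and 2.18 for all leukocyte markers. For T and NK markers it was 1.44 and for dendritic markers 1.38. Replicate 3 was lower for adipocyte, endothelium, proximal tubule, and thick limb, distal and collecting duct markers, at 0.642, 0.906, 0.215 and 0.508 times. The neutrophil markers, with Ly6g, Elane or Mpo at 0 in most libraries, were at 7.02 to 12.8 CPM at 18 mo and at 65.2 and 56.2 CPM in replicates 1 and 3 of the 21 mo group, with replicate 2 at 1.86 times the 18 mo mean and the O304 mice at 14.2 to 23.0 CPM. Fibroblast markers summed to 135 to 209.6 CPM at 18 mo, to 110, 455 and 1053 CPM at 21 mo and to 87.3 to 217 CPM with O304. Adipocyte markers summed to 46.2 to 90.5 CPM at 18 mo, to 129, 55.1 and 35.4 CPM at 21 mo and to 110.5 to 283 CPM with O304. Most of the sum at 18 mo and 21 mo was Fabp4, with means of 69.8 and 70.1 CPM. Adipoq was at means of 0.471 and 0.190 CPM there, and 5 of the 7 markers were at 0 in replicate 1 of the 18 mo group. Dendritic cell markers were at 17.6 to 29.7 CPM at 18 mo, at 27.5, 19.8 and 27.4 CPM at 21 mo and at 22.7 to 41.3 CPM with O304. T and NK cell markers were at 10.8 to 16.6 CPM, at 35.8, 13.2 and 19.01 CPM and at 12.2 to 47.9 CPM in the same order. The B and plasma cell markers were at 107 to 229 CPM, at 92.2, 109 and 640.2 CPM and at 218 to 702 CPM. Most of that sum at 18 mo and 21 mo was Jchain, with means of 149 and 265 CPM. Podocyte markers summed to 165 to 232 CPM at 18 mo, to 168, 163 and 479 CPM at 21 mo and to 185 to 314 CPM with O304. Endothelium markers were at 181 to 298 CPM, at 255, 167 and 152 CPM and at 223 to 411 CPM in the same order. Thick limb, distal and collecting duct markers were at 3892.5 to 8198 CPM, at 7073, 6672 and 3388 CPM and at 3048 to 5053 CPM. The part of these cells in the values of the sensing genes was not tested.

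**Figure D5:**
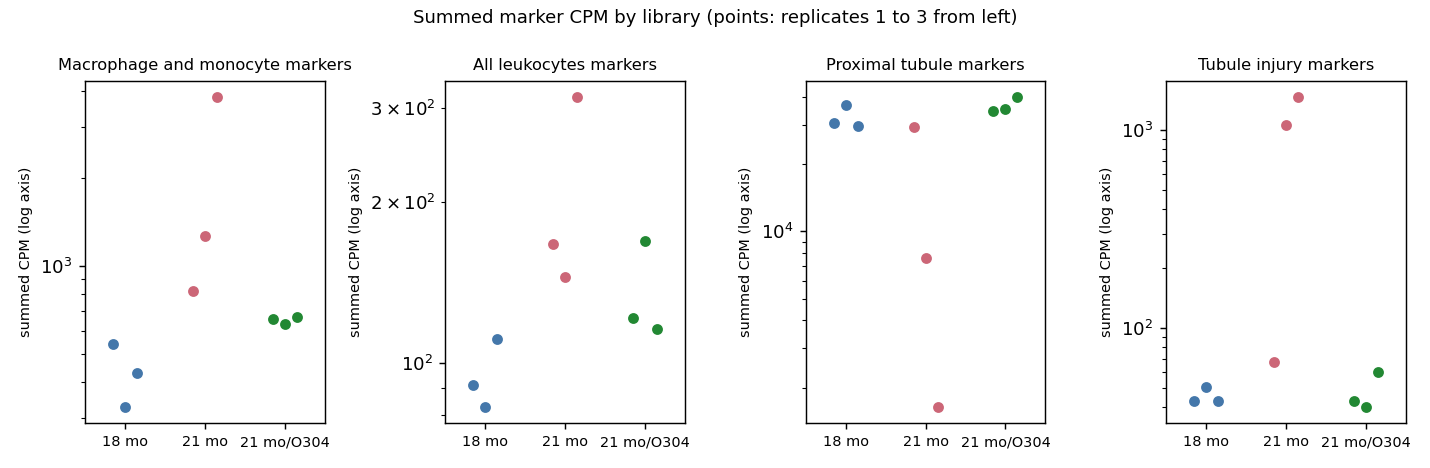
Summed CPM of 4 marker lists in each mouse, on log axes, with replicates 1 to 3 of each group from left to right. Macrophage and leukocyte markers were above the 18 mo mice in all 3 mice of the 21 mo group and in the O304 mice, while low proximal tubule markers and high injury markers were found in replicates 2 and 3 of the 21 mo group alone.

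Other genes of the same pathways were taken from a list of 97, of which 95 were in the table and 86 were tested. At 21 mo against 18 mo edgeR called 0 of them, with 39 higher and 2 lower at an unadjusted p under 0.05, where 14% and 12% of all tested genes were, and their median log2 fold change was 0.66. With O304 against 21 mo it again called 0, with 35 lower and 4 higher, where 12.4% and 8.27% of all tested genes were, and the median was −0.56. The counts by role are given without a test between roles. Of the 14 tested targets of NF-kB, 11 were higher at 21 mo at an unadjusted p under 0.05, with a median of 2.59. Among the 14, Tnf was at 0.113 to 0.246 CPM and Cxcl2 at 0.0566 to 0.308 CPM at 18 mo, under the filter's level of 0.588 CPM. Both passed the filter only through other libraries, and the counts of these lists were not repeated without such genes. The target Sod2, a mitochondrial superoxide dismutase, had a lower mean at 21 mo, with 332, 382 and 329 CPM at 18 mo, 343, 195 and 116 CPM at 21 mo and 334, 341 and 355 CPM with O304. Its log2 fold change was −0.68 (SE 0.33, edgeR adjusted p = 0.227). Of the 29 further regulators of NF-kB, 6 were higher and 1 was lower, with a median of 0.062. Of 9 co-receptors and adaptors of the Toll-like receptors, 5 were higher. The genes named next were chosen after their values were seen.

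Cd14 was at 15.7, 8.38 and 11.3 CPM in the 18 mo libraries, 17.7, 50.3 and 113 CPM in the 21 mo libraries and 15.2, 15.4 and 15.4 CPM in the 21 mo/O304 libraries. Cd14, the co-receptor that hands lipopolysaccharide to Tlr4, was above all other mice in the 21 mo group, by little in replicate 1. Unc93b1 read 33.3, 31.5 and 38.5 CPM at 18 mo, 44.95, 58.5 and 78.1 CPM at 21 mo and 34.5, 50.96 and 38.96 CPM with O304. Unc93b1 is the chaperone that carries the endosomal receptors to their compartment, and it too was above the 18 mo mice in all 3 mice of the 21 mo group. For Ly96, the CPM values were 3.22, 3.02 and 2.88 at 18 mo, 4.35, 3.92 and 3.89 at 21 mo and 3.31, 2.44 and 3.37 in 21 mo/O304. Ly96 encodes MD-2, the partner of Tlr4 that binds lipopolysaccharide, and it differed less than Cd14.

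Among the regulators of NF-kB, Birc3, a ubiquitin ligase induced by NF-kB, and Tnfaip3, the inhibitor A20, were also highest in replicates 2 and 3 of the 21 mo group. Levels of Birc3 were 10.4, 12.8 and 11.5 CPM in the 18 mo mice, 14.2, 43.9 and 49.2 CPM in the 21 mo mice and 13.5, 18.5 and 13.3 CPM in the 21 mo/O304 mice. Tnfaip3 was at 9.17, 4.62 and 8.88 CPM in the 18 mo libraries, 12.2, 25.6 and 20.3 CPM in the 21 mo libraries and 8.43, 9.48 and 9.295 CPM in the 21 mo/O304 libraries. In both, replicate 1 was also above the 18 mo mice. Chuk, the alpha kinase of IkB, was at 191, 119 and 81.2 CPM at 21 mo and at 154 to 212 CPM at 18 mo, and was lowest in replicates 2 and 3. Among the targets, C3, the central complement protein, and Lcn2, a lipocalin released by injured tubules, were highest in replicates 2 and 3 of the 21 mo group. C3 read 18.2, 38.6 and 31.6 CPM at 18 mo, 73.8, 809 and 1217 CPM at 21 mo and 60.01, 49.2 and 75.6 CPM with O304. For Lcn2, the CPM values were 15.4, 2.095 and 5.71 at 18 mo, 17.5, 323 and 1258 at 21 mo and 11.8, 3.22 and 9.996 in 21 mo/O304. Lcn2 is also one of the markers of tubule injury summed above. C3 was above the other groups in replicates 2 and 3 and just within the O304 range in replicate 1. Levels of Cxcl1 were 0.867, 2.71 and 1.47 CPM in the 18 mo mice, 1.54, 32.5 and 30.7 CPM in the 21 mo mice and 3.43, 1.13 and 2.74 CPM in the 21 mo/O304 mice. Cxcl1, a chemokine for neutrophils, was high in replicates 2 and 3 of the 21 mo group and at 3.43 CPM or less in all other mice. Il1b was at 7.37, 4.56 and 5.66 CPM in the 18 mo libraries, 11.3, 7.67 and 58.7 CPM in the 21 mo libraries and 8.37, 6.496 and 7.32 CPM in the 21 mo/O304 libraries. Il1b, the product that caspase-1 matures, was highest in replicate 3 of the 21 mo group.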

How the data were processed

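Reads were cleaned by the authors, mapped with HISAT2 2.0.5 and assigned to genes with featureCounts 1.5.0-p3. The counts they deposited are raw, with 1 library per mouse and no pooling. The deposited FPKM values are those counts divided by gene length and library size by the authors, and they were used only to compare levels between genes. The submitters' processing notes name the builds GRCm38 and mm10, and the coordinates are those of the authors' table. All 39 symbols were matched to RefSeq genes of GRCm38.p6 and overlapped them. The deposited log2 fold changes, p-values, adjusted p-values and group means of the authors' own DESeq2 comparisons (1.20.0) were not used. Strandedness and the treatment of reads with several matches are not given in the sources used here. The values of 14 members that overlap another annotated gene are therefore uncertain, namely Irak1, Irak2, Irak3, Irak4, Nfkb1, Nfkb2, Myd88, Ripk1, Pycard, Ikbkb, Tlr3, Mlkl, Aim2 and Ikbke.

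Genes were filtered with filterByExpr (minimum count 10, minimum total 15), normalized by TMM and tested in R 4.3.3 with the quasi-likelihood test of edgeR 4.0.16 on all 9 libraries with 3 group means and 6 residual degrees of freedom, two-sided, with Benjamini-Hochberg adjustment over 15902 genes at 0.05. The test was tried on simulated data. The exact permutation test over mice, two-sided, has a smallest p of 0.1. Genes given in full were the 8 with the smallest p in each comparison and the member with the highest mean FPKM of each role. The members and lists were chosen with earlier results of these data known. The alternatives were DESeq2 1.42.0, limma 3.58.1 voom with sample quality weights, scaling by the upper quartile, no filter beyond 1 count per gene, a fit of the 6 libraries compared, a replicate block and leaving out each library. No sequences are shown.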

Additional observations from a re-analysis of the deposited data

How the results depend on the processing

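With DESeq2, 18 members were higher and 2 lower at 21 mo against 18 mo among 2058 genes called, 11 were lower with O304 against 21 mo among 931, and 0 were called with O304 against 18 mo among 125. With voom and sample quality weights the counts were 24 and 3 among 8409, 5 higher and 19 lower among 6528, and 0 among 415. With every gene of at least 1 count, edgeR called 6 members higher at 21 mo among 576 genes. The 576 were 2.04% of the 28225 genes given an adjusted p, and Tlr8 was among the 6 members. With O304 against 21 mo this fit called 0 members among 17 genes. With only the 6 libraries compared it called 0 members, and 0 genes in place of 3 at 21 mo and 21 with O304 against 18 mo. Upper-quartile normalization gave 0 members in each comparison. With the replicate number as a block, 0 members and 0 genes were called. Same-numbered libraries had correlations of −0.13 to 0.175 over 9 pairs, 4 of them under 0.1. In 10 of 18 library comparisons, each among 3 libraries, the best was that of the own number. These values do not decide whether the numbers pair the mice. No pairing is stated for the mice, and the main fit used none. For DESeq2 and voom the cause was not tested.

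Leaving out 1 library at a time gave 0 to 23 members higher and 0 to 2 lower at 21 mo among 0 to 4049 genes, 0 to 3 higher and 0 to 18 lower with O304 against 21 mo among 0 to 3684, and 0 members with O304 against 18 mo among 0 to 12. The highest counts of the first and second comparisons came without replicate 1 of the 21 mo group, and the 12 genes of the third came without its replicate 3. The median log2 fold change of the members ran from 0.59 to 1.22, from −0.94 to −0.32 and from 0.072 to 0.20, and the values −0.32 and 0.072 came without replicate 3 of the 21 mo group and without replicate 2 of the O304 group.

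Some members changed sign. With O304 against 21 mo, Traf6 was at −0.0059 under upper-quartile normalization, and under voom Traf6 was at −0.048, Tlr1 at 0.013, Nlrp3 at 0.11, Aim2 at 0.27 and Casp1 at 0.52. With O304 against 18 mo, Myd88 was at −0.0077 on the 6 libraries and at −0.012 under voom, and Relb at 0.0075 with the block. When 1 library was left out, the signs that changed were, with their log2 ranges, Nod1 −0.36 to 0.053, Tlr9 −0.22 to 0.92, Tlr11 −1.60 to 0.17, Irak4 −0.052 to 0.38 and Ikbke −0.042 to 1.19 at 21 mo. With O304 against 21 mo they were Traf6 −0.037 to 0.054, Nod1 −0.039 to 0.37, Nlrp3 −0.69 to 0.46, Casp1 −1.05 to 0.41, Tlr9 −0.22 to 0.54 and Ripk1 −0.16 to 0.017. With O304 against 18 mo they were Myd88 −0.052 to 0.041, Tlr3 −0.045 to 0.10, Nod1 −0.12 to 0.12, Ripk3 −0.42 to 0.0026, Nfkb2 −0.20 to 0.11, Relb −0.14 to 0.19, Ikbke −0.29 to 0.058, Pycard −0.069 to 0.095, Ikbkb −0.054 to 0.12 and Tlr9 −0.018 to 1.23. The cause of these changes was not tested. In all 3 comparisons together, 9 of the values under another fit and 38 of those with 1 library left out had the opposite sign. Another 585 and 940 kept their sign and their side of the threshold. The remaining 88 and 48 kept their sign and moved to an adjusted p under 0.05. Depth limits Tlr5, Tlr6, Tlr8 and Tlr11, whose 18 mo levels were a few counts per library.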

Other observations

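Receptors of the C-type lectin family bind fungal and mycobacterial sugars and signal through Syk and Card9. Of 7 tested genes of this pathway, namely the receptors Clec7a, Clec4d and Clec4n and the signalling genes Syk, Card9, Bcl10 and Malt1, 6 were higher at 21 mo at an unadjusted p under 0.05, where 14% of all tested genes were, and 0 were called by edgeR. Clec7a read 4.95, 7.02 and 7.98 CPM at 18 mo, 14.4, 20.9 and 57.9 CPM at 21 mo and 7.27, 15.8 and 11.9 CPM with O304. Clec7a encodes dectin-1, and all 21 mo mice lay above the 18 mo mice. Clec4d, at 0.123 to 0.310 CPM in the 18 mo mice, passed the filter on low counts only through other libraries. For Clec4n, the CPM values were 0.619, 0.863 and 0.453 at 18 mo, 1.67, 5.29 and 61.5 at 21 mo and 1.57, 1.07 and 3.57 in 21 mo/O304. Clec4n, which encodes dectin-2, was highest in replicate 3 of the 21 mo group. Levels of Syk were 5.76, 4.68 and 7.98 CPM in the 18 mo mice, 11.5, 16.8 and 23.8 CPM in the 21 mo mice and 7.68, 14.2 and 7.77 CPM in the 21 mo/O304 mice. Malt1 and Bcl10, which form a complex with Card9, were at 21.4 to 27.9 CPM and at 26.7 to 48.5 CPM over all libraries.

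Cytosolic sensing of nucleic acids included both directions. Of 10 tested genes, 4 were higher and 1 lower at 21 mo at an unadjusted p under 0.05, where 14% and 12% of all tested genes were. Tmem173 was at 5.64, 4.07 and 5.77 CPM in the 18 mo libraries, 9.298, 18.9 and 29.3 CPM in the 21 mo libraries and 5.76, 7.09 and 4.202 CPM in the 21 mo/O304 libraries. Tmem173, which encodes STING, was higher in every 21 mo mouse than in any other mouse. Ddx58 read 17.96, 20.5 and 24.3 CPM at 18 mo, 25.6, 56.5 and 41.4 CPM at 21 mo and 15.8, 23.6 and 19.6 CPM with O304. Ddx58 encodes the RNA sensor RIG-I and was highest in replicate 2 of the 21 mo group. For Irf3, the CPM values were 49.8, 48.8 and 48.5 at 18 mo, 41.9, 36.5 and 39.5 at 21 mo and 41.9, 40.9 and 45.4 in 21 mo/O304. Irf3, the transcription factor shared by these sensors, was lower in every mouse of both older groups than in the 18 mo mice. Il1rn, the antagonist of the interleukin-1 receptor, was at 0.3097, 0.431 and 0.339 CPM at 18 mo, 1.14, 7.62 and 12.5 CPM at 21 mo and 0.6397, 0.358 and 0.573 CPM with O304. Its log2 fold change at 21 mo was 4.27 (SE 0.79, edgeR adjusted p = 0.0626), with every 18 mo value under the filter's level of 0.588 CPM. Nlrp6, an epithelial member of the Nod-like family, was at 99.6, 103 and 91.6 CPM at 18 mo and 98.7, 42.2 and 19.3 CPM at 21 mo, with replicates 2 and 3 the lowest of all mice. These genes were chosen after their values were seen, and no test compares them with other genes.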
